A study of Mus musculus with 4 samples.

Results

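The 9 genes described here encode the receptor of type I interferon, transcription factors that act after it or before it, and inhibitors that shut it off. They are Ifnar1, Ifnar2, Stat2, Irf1, Irf3, Irf7, Irf9, Socs1 and Socs3. They were taken by gene symbol from a deposited table of 34745 mouse genes, each symbol matched 1 row, and all 9 passed the filter on low counts that left 12590 tested genes. RNA was measured in BMMs, primary macrophages grown from the bone marrow of wild-type male C57BL/6 mice that the labels give as 8 weeks old. The cells were kept without serum for 12 h and then cultured for 24 h in complete medium with RANKL, the cytokine that turns these precursors into osteoclasts, at 100 ng/mL. The RANKL+DI group also received dimethyl itaconate (DI), a membrane-permeable form of the macrophage metabolite itaconate, and the RANKL+Veh group received DMSO as its vehicle. The dose of DI is 20 mM in the labels and 20 μM in the methods of the paper. Each group held 2 libraries, and both groups had RANKL, so that no library shows BMMs without it. Nothing in the labels says that the libraries of a group came from separate cultures or mice, and p-values therefore measure only the spread between these samples, which may be technical.

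Type I interferon binds a receptor made of IFNAR1 and IFNAR2, and the kinases on that receptor phosphorylate STAT2, which pairs with another STAT and with IRF9. This complex enters the nucleus and switches on genes that carry an interferon-stimulated response element (ISRE). IRF3 and IRF7 act one step earlier, because once phosphorylated they switch on the interferon genes, and Irf7 is itself a gene that interferon induces. IRF1 is a factor of related binding preference whose gene responds to interferons through a gamma-activated site (GAS), a sequence bound by STAT dimers. SOCS1 blocks kinases of the interferon receptors, and SOCS3 blocks cytokine receptors that signal through STAT3. In RANKL-treated osteoclast precursors, interferon-β made by the cells themselves is known as a brake on osteoclast formation.

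The promoters of the 9 genes were read from RefSeq on GRCm38.p6, and all 9 symbols matched at least 1 start site. The 250 bases before each start were searched on both strands for the ISRE core GAAANNGAAA and for the GAS letters TTCNNNGAA. Among 32851 mouse promoter windows of that length, 2.98% held the ISRE core and 7.02% held the GAS letters. The 5 windows with a match are shown because they are where the sequence elements named above occur in these genes, each with the matched bases in capitals and written 5′ to 3′ on the strand of the gene. Stat2 (chr10:128270256-128270305, plus strand) and Socs1 (chr16:10785584-10785639, minus strand) held the ISRE core, with 2 overlapping matches in Socs1, at 222 and 83 bases before the start. Ifnar2 (chr16:91372549-91372597, plus strand), Irf1 (chr11:53769904-53769952, plus strand) and Socs3 (chr11:117969492-117969540, minus strand) held the GAS letters, at 214, 90 and 154 bases before the start.
Stat2: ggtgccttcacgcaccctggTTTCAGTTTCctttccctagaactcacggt
Socs1: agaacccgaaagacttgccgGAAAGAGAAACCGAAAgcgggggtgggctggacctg
Ifnar2: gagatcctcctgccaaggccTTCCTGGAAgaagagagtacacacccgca
Irf1: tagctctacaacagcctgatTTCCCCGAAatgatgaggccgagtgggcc
Socs3: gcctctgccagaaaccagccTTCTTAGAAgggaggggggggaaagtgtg
Neither set of letters was found in the windows of Ifnar1, Irf3, Irf7 and Irf9, or at the other RefSeq start of Irf1, which says only that these letters were not in those windows. A match is a run of letters and was not tested as a binding site. The RefSeq starts of Socs3, Irf7 and Irf9, and the other start of Irf1, lie inside the deposited bounds of these genes. The windows of Irf9 and Socs3 begin inside the bounds of these genes, so the bases before their deposited starts were not searched. The match shown for Socs3 thus lies inside its deposited bounds. The RefSeq starts of Ifnar1 and Stat2 lie before the deposited bounds.

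Deposited counts summed to between 16085692 and 19403480 per library. Levels are given as CPM, the usual count of a gene relative to its library's total, here after scaling by TMM factors, and 3 counts corresponded to between 0.160 and 0.180 CPM. The 10 most abundant genes took 13.4% and 13.5% of counts in the RANKL+DI libraries and 10.5% and 10.6% in the RANKL+Veh libraries. Macrophage markers were tested in 11 of 11 rows, with 5 higher and 2 lower with DI, and their summed level was 29386 and 30158 CPM with DI against 24018 and 23084 CPM with vehicle. Most of it was Lyz2, without which the sum was 6614 and 6373 CPM with DI and 5729 and 5454 CPM with vehicle. Of 8 tested osteoclast markers 5 were lower and 2 higher with DI, while their summed level lay between 714 and 764 CPM. Without Atp6v0d2, the most abundant of them and called higher, the sum was 222 and 205 CPM with DI against 337 and 323 CPM with vehicle. Plasmacytoid dendritic cells are the specialised producers of interferon, and their 7 markers summed to between 31.6 and 39.1 CPM, nearly all of it from Tcf4, which was not called, while Siglech had 0 counts in all 4 libraries. The summed B cell markers reached 21.3 and 23.5 CPM with DI and 10.7 and 11.8 CPM with vehicle, nearly all of it from Ighm, while Pax5 had 0 counts in all 4 libraries. The part of these marker levels in the results was not tested, and in bulk RNA fewer cells of a type and less RNA per cell cannot be told apart.

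With DI 4 of the 9 genes, namely Irf7, Socs3, Stat2 and Irf9, were lower and 0 were higher (edgeR quasi-likelihood test, Benjamini-Hochberg adjusted p under 0.05). Among all tested genes 7.7% were lower at this threshold, and 14.8% were called in either direction. The other 5 genes, Ifnar1, Ifnar2, Irf1, Irf3 and Socs1, were not called. In 7 of the 9 genes both RANKL+DI libraries lay below both RANKL+Veh libraries, an arrangement found in 29.6% of tested genes. The fitted log2 fold change was below 0 in 9 of 9 genes, with a median of -0.24, while the median over all tested genes was 0.0012. Those of Ifnar1 (-0.0050) and Socs1 (-0.015) were near 0 and changed sign under 2 of 16 and 4 of 15 alternative settings. A lower log2 fold change than that of Ifnar1 was found in 48.9% of all tested genes.

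**Figure D1:**
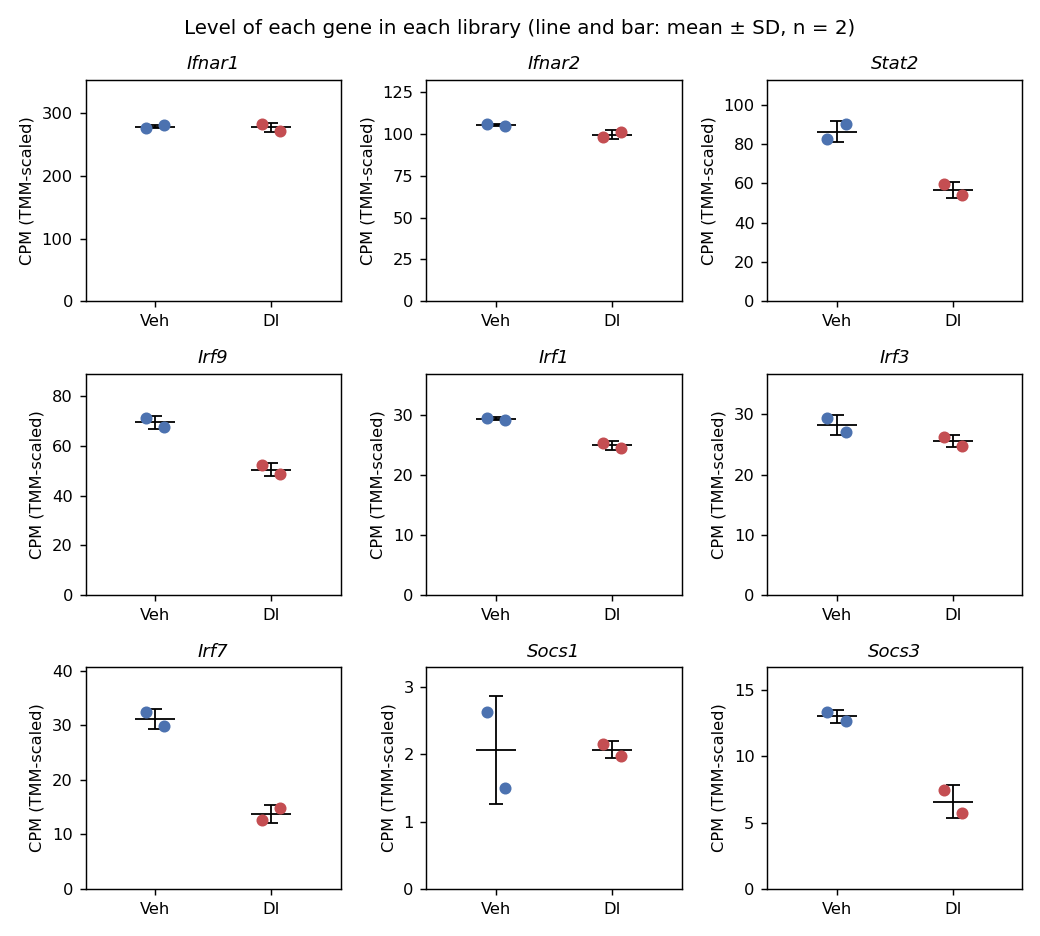
Level of each of the 9 genes in CPM (TMM-scaled, axes starting at 0) in each RANKL+Veh library (blue) and each RANKL+DI library (red), with the mean ± SD of the 2 libraries of a group. The groups lie far apart for Irf7, Socs3, Stat2 and Irf9, lie close together without overlap for Ifnar2, Irf1 and Irf3, and overlap for Ifnar1 and Socs1.

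Transcripts of the interferon receptor were the most abundant of the 9 and, after TMM scaling, were held at nearly the same level with DI. Ifnar1 (chr16:91485238-91507441, plus strand), the chain that carries the kinase TYK2, measured 283 and 273 CPM in the RANKL+DI libraries and 277 and 281 CPM in the RANKL+Veh libraries. The groups overlapped, since both vehicle values lay between the DI values. Its mean was 278 ± 7.30 CPM with DI and 279 ± 2.70 CPM with vehicle (SD, n = 2), and the difference was -0.345% with a 95% interval from -6.86% to 6.63%. Ifnar2 (chr16:91372783-91405589, plus strand), the high-affinity chain that binds STAT2, measured 98.0 and 101 CPM with DI and 106 and 105 CPM with vehicle. Both DI libraries lay below both vehicle libraries, by a gap of the same order as the spread between the DI libraries. The difference was -5.44% (95% interval, -12.9% to 2.61%) and was not called (log2 fold change -0.08, SE 0.048, edgeR quasi-likelihood adjusted p = 0.322). Exons of Ifnar2 share 9.46% of their bases with Gm21970 on the same strand, a gene with a mean of 376.5 counts against 1826.5 for Ifnar2. Falls of Ifnar1 beyond 6.86%, or of Ifnar2 beyond 12.9%, lie outside these intervals.

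Both partners of the nuclear complex fell with DI. Stat2 (chr10:128270576-128292849, plus strand), which encodes the transactivating subunit, measured 59.5 and 53.9 CPM in the RANKL+DI libraries and 82.5 and 90.1 CPM in the RANKL+Veh libraries. The highest DI library was well below the lowest vehicle library. Stat2 fell by 34.3% (95% interval, -42.4% to -25.0%), from 86.3 ± 5.41 to 56.7 ± 3.98 CPM (SD, n = 2), with a log2 fold change of -0.61 (SE 0.078, edgeR quasi-likelihood adjusted p = 0.00618). Irf9 (chr14:55603571-55610030, plus strand), the DNA-binding subunit, measured 52.4 and 48.6 CPM with DI and 71.4 and 67.7 CPM with vehicle. These groups did not overlap either, and the gap between them was several times the spread within each. Irf9 fell by 27.4% (95% interval, -35.4% to -18.3%), from 69.6 ± 2.60 to 50.5 ± 2.68 CPM (SD, n = 2), with a log2 fold change of -0.46 (SE 0.069, edgeR quasi-likelihood adjusted p = 0.00980). Both intervals cover falls between 25.0% and 35.4%, and whether the 2 genes fell by different amounts was not tested. Within a library, where scaling cancels, the FPKM of Stat2 was 2.17 and 2.12 times that of Irf9 with DI. With vehicle it was 2.21 and 2.55 times, with the lower vehicle ratio close to the DI ratios. The size of these ratios depends on the lengths behind the FPKM, 4481 bases for Stat2 and 8582 bases for Irf9. Exons of Irf9 share 2.28% of their bases with Rnf31 on the same strand.

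Among the 3 other IRF genes, Irf7 was the gene with a called decrease. Irf7 (chr7:141262706-141266481, minus strand), the interferon-induced factor that drives most interferon-α genes, measured 12.6 and 14.8 CPM in the RANKL+DI libraries and 32.5 and 29.9 CPM in the RANKL+Veh libraries. Every DI value was less than 50% of every vehicle value. It fell by 56.0% (95% interval, -63.5% to -46.9%), from 31.2 ± 1.82 to 13.7 ± 1.59 CPM (SD, n = 2), with a log2 fold change of -1.18 (SE 0.11, edgeR quasi-likelihood adjusted p = 0.00248). This was the largest fall of the 9 genes, and 1.08% of all tested genes had a lower log2 fold change. Exons of Irf7 share 1.19% of their bases with Phrf1 on the opposite strand, a gene with a mean of 795.25 counts against 399.25 for Irf7.

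Irf3 (chr7:44997648-45002847, plus strand), the constitutive partner of Irf7, measured 26.2 and 24.8 CPM with DI and 29.4 and 27.1 CPM with vehicle. The groups did not overlap, but the gap between the nearest libraries was smaller than the spread within either group. Its difference of -9.76% (95% interval, -21.6% to 3.94%) was not called (log2 fold change -0.15, SE 0.083, edgeR quasi-likelihood adjusted p = 0.295). The upper bound of the Irf7 interval, -46.9%, lay below the lower bound of the Irf3 interval. Without any scaling between libraries, the FPKM of Irf3 was 5.63 and 4.52 times that of Irf7 in the RANKL+DI libraries. In each RANKL+Veh library it was 2.45 times. The lengths behind these FPKM values were 2374 bases for Irf3 and 6421 bases for Irf7. The size of the ratio depends on these lengths, and its contrast between groups does not.

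Irf1 (chr11:53770014-53778374, plus strand), an activator of interferon-responsive and antigen presentation genes, measured 25.5 and 24.5 CPM with DI and 29.6 and 29.3 CPM with vehicle. Here the libraries of each group were close together and the groups stood clear of each other. The difference of -15.2% had a 95% interval from -25.1% to -3.94%, with a log2 fold change of -0.24 (SE 0.073, edgeR quasi-likelihood adjusted p = 0.0866). It was called, at an edgeR adjusted p = 0.0258, when libraries were scaled by their totals alone, without TMM factors. Irf1 is therefore reported as not called, with an interval that lies below 0.

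The SOCS genes differed in how well they could be measured. Socs3 (chr11:117966079-117970047, minus strand), the feedback inhibitor of gp130-type receptors, measured 7.46 and 5.71 CPM in the RANKL+DI libraries and 13.4 and 12.7 CPM in the RANKL+Veh libraries, from 128 and 107 against 249 and 211 counts. All DI values lay far below the vehicle values. Socs3 fell by 49.6% (95% interval, -61.3% to -34.3%), from 13.0 ± 0.495 to 6.58 ± 1.24 CPM (SD, n = 2), with a log2 fold change of -0.99 (SE 0.16, edgeR quasi-likelihood adjusted p = 0.0119). Without the first RANKL+Veh library the log2 fold change was -0.95 and the call was lost (adjusted p = 0.0551). Socs1 (chr16:10783808-10785536, minus strand), the inhibitor of interferon receptor kinases, measured 2.16 and 1.97 CPM with DI and 2.63 and 1.50 CPM with vehicle, from 37 and 37 against 49 and 25 counts. The DI values lay between the vehicle values. Its difference of -1.01% had a 95% interval from -42.7% to 71.0%, so that changes anywhere between these bounds are compatible with the counts. In the same library the FPKM of Socs3 was 1.28 and 1.07 times that of Socs1 with DI. With vehicle it was 1.89 and 3.13 times, where the spread between the vehicle libraries came from Socs1. The size of these ratios depends on the lengths behind the FPKM, 3288 bases for Socs3 and 1220 bases for Socs1.

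**Figure D2:**
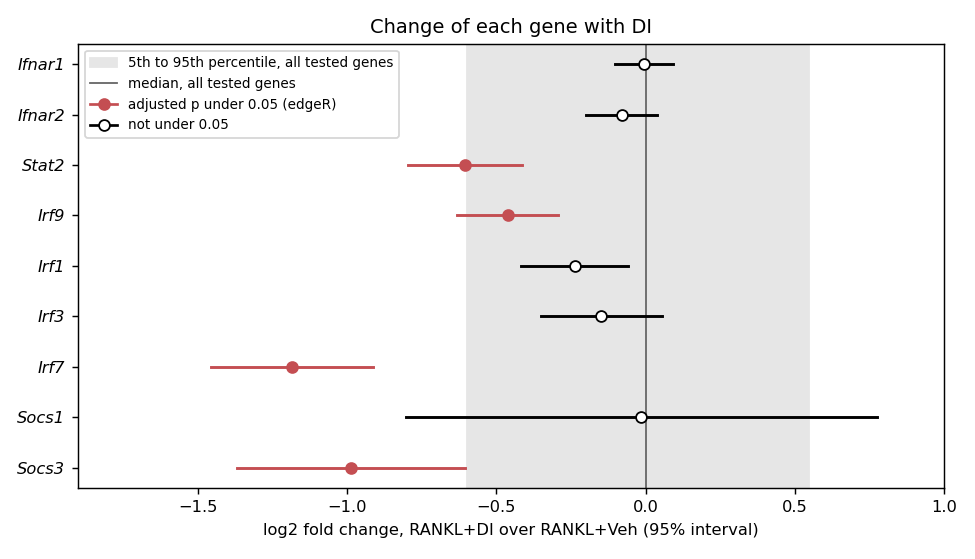
Fitted log2 fold change of each gene, RANKL+DI over RANKL+Veh, with its 95% interval (edgeR quasi-likelihood fit). Red points mark an adjusted p under 0.05, and the shaded band spans the 5th to 95th percentile of all tested genes, from -0.60 to 0.55. Irf7, Socs3 and Stat2 lie beyond the lower edge of the band, Irf9 lies inside it, and the interval of Socs1 is by far the widest.

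Levels of different genes were compared as CPM per kb of exonic bases in GENCODE M21. In the RANKL+Veh libraries Ifnar1 was highest at 46.9 ± 0.454 CPM per kb (SD, n = 2), followed by Ifnar2 at 31.7 ± 0.218 and then Stat2 at 14.6 ± 0.914 and Irf9 at 12.9 ± 0.483. At these exon lengths Irf7 (8.26 ± 0.483 CPM per kb) and Irf3 (8.21 ± 0.481 CPM per kb) overlapped with vehicle and could not be ordered. Irf1 followed at 7.40 ± 0.0501 CPM per kb, Socs3 at 4.50 ± 0.171 and Socs1 at 0.710 ± 0.275. With DI the receptor chains kept their places, at 46.7 ± 1.23 CPM per kb for Ifnar1 and 30.0 ± 0.731 for Ifnar2. Stat2 (9.57 ± 0.671 CPM per kb) and Irf9 (9.38 ± 0.498 CPM per kb) overlapped with DI at these lengths. Irf7 dropped to 3.63 ± 0.420 CPM per kb, below Irf3 at 7.41 ± 0.291 and Irf1 at 6.28 ± 0.174. Socs3 stood at 2.28 ± 0.428 CPM per kb and Socs1 at 0.710 ± 0.0443. The order by deposited FPKM differed, with Stat2 at 19.9 above Ifnar2 at 17.9 with vehicle. For 68.7% of 11450 well-counted genes the length behind the deposited FPKM lay within 1% of the summed length of all distinct annotated exons, in which overlapping exons count repeatedly. For 3 of the 9 genes that length was instead shorter than the exonic bases of GENCODE M21. It was 4481 against 5926 for Stat2, 2374 against 3442 for Irf3 and 1220 against 2908 for Socs1. These are the 3 genes whose deposited position differed from that annotation. At the shorter lengths their CPM per kb would be higher. Irf3 would then lie above Irf7 with vehicle, and Stat2 above Irf9 with DI, so these places depend on the length used.

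**Figure D3:**
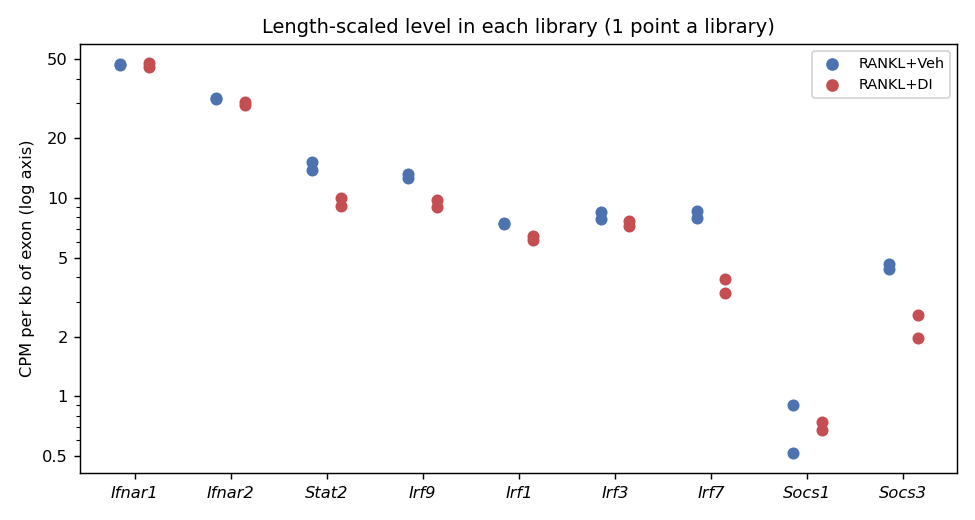
Level of each gene in each library as CPM per kb of exonic bases, on a log axis, for RANKL+Veh (blue) and RANKL+DI (red), 1 point a library. At the GENCODE M21 lengths Irf7 and Irf3 share a level near 8.2 CPM per kb with vehicle. With DI the 2 Irf7 points lie at 3.33 and 3.93, below those of Irf3.

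The rest of the pathway was followed with lists of 110 other genes, of which 79 were tested, 28 were lower with DI, 4 were higher and 47 were not called, where 7.7% of all tested genes were lower and 14.8% were called in either direction. All 28 lower genes were on the list of STAT2 and IRF9 targets, and outside that list 0 of 50 tested genes were lower and 4 were higher. The lists were chosen with earlier results of these data known, and whether these factors act on the listed genes here was not tested. No interferon transcript was counted. All 21 interferon genes on the list had 0 counts in each of the 4 libraries, which allows up to 3 counts in each. The remaining receptor chains and kinases, among them Jak1 and Tyk2, resembled Ifnar1 and Ifnar2, with 0 of 6 tested genes called and log2 fold changes between -0.05 and 0.13. Likewise 0 of the 5 STAT genes on the list were called, and their median log2 fold change was 0.06.

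Of 6 tested genes on the list of other IRF genes 1 was called, in the direction opposite to Irf7 and Irf9. That list also held genes of IRF2-binding proteins, which are not IRF genes themselves. Irf8, which guides macrophage development and restrains osteoclast formation, measured 124 and 126 CPM in the RANKL+DI libraries and 91.4 and 92.3 CPM in the RANKL+Veh libraries. The groups were far apart with little spread, and Irf8 was higher with a log2 fold change of 0.45 (SE 0.045, edgeR quasi-likelihood adjusted p = 0.00301). Irf5, an inducer of inflammatory cytokines, had 134 and 201 CPM with DI and 110 and 101 CPM with vehicle. Its DI libraries were both above vehicle but far from each other, and it was not called (log2 fold change 0.67, SE 0.18, edgeR quasi-likelihood adjusted p = 0.0596). Leaving out 1 library moved that log2 fold change between 0.35 and 0.93, the lowest without the second RANKL+DI library. Irf5 was called under 4 of 15 alternative settings, among them without the first or without the second RANKL+DI library (edgeR quasi-likelihood adjusted p = 3.84e-04 and 0.0256). Exons of Irf5 share 14.1% of their bases with Tnpo3 on the opposite strand, and no source used here says that strand was used in counting.

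Of 14 other feedback inhibitors 1 was lower and 1 was higher, a share near the 14.8% of all tested genes, and their median log2 fold change was -0.01. The lower gene was Usp18, which removes ISG15 and blocks IFNAR2 and is itself induced by interferon. Its level was 8.91 and 6.45 CPM with DI against 17.3 and 20.8 CPM with vehicle, clearly apart, with a log2 fold change of -1.31 (SE 0.18, edgeR quasi-likelihood adjusted p = 0.00776). The higher gene was Ptpn1, a phosphatase of JAK2 and TYK2, which went from 169 and 170 CPM with vehicle to 286 and 288 CPM with DI (log2 fold change 0.76, SE 0.038, edgeR quasi-likelihood adjusted p = 4.82e-04). Its groups were separated by far more than the spread within them.

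Among 12 kinases and adaptors that act on IRF3 and IRF7, 0 were lower and 1 was higher, with a median log2 fold change of -0.07. Tbk1, the kinase that phosphorylates both factors, measured 115 and 118 CPM with DI and 121 and 117 CPM with vehicle, and these values overlapped. Ticam1, the adaptor of TLR3, was the higher gene (log2 fold change 0.41, SE 0.094, edgeR quasi-likelihood adjusted p = 0.0376), and 9 of 15 alternative settings did not call it. The 8 tested cytokines and receptor chains that feed STAT3 and Socs3 held 1 higher gene, Csf3r, the receptor of G-CSF, at a log2 fold change of 0.48 (edgeR quasi-likelihood adjusted p = 0.0242), which 8 of 15 alternative settings did not call. A transcript of AC105061.2 matches 43.6% of Csf3r at 96.8% identity, so that its reads may be shared. The log2 fold changes of these 8 genes ran from -0.61, in a gene not called, to 0.48, with a median of -0.02. Settings where the 1 gene called in this list was lower with DI included the DESeq2 Wald test, the replicate block and log2(FPKM + 0.01).

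Genes listed as targets of the complex of STAT2 and IRF9 were lower almost throughout. Of 29 tested targets 28 were lower with DI and 0 were higher, and the median log2 fold change was -1.17 with a range from -2.75 to -0.14. Trim21, at -0.14, was the gene not called. Their summed level was 879 and 803 CPM in the RANKL+DI libraries and 1448 and 1534 CPM in the RANKL+Veh libraries. Oasl2, a 2′-5′ oligoadenylate synthetase-like protein, went from 103 and 110 CPM with vehicle to 42.7 and 39.3 CPM with DI. Cxcl10, the chemokine that recruits activated T cells, fell from 19.3 and 22.6 CPM to 4.60 and 5.28 CPM. Cmpk2, a mitochondrial nucleotide kinase, fell from 24.4 and 28.6 CPM to 9.03 and 7.36 CPM. In these 3 genes the groups were far apart, with log2 fold changes of -1.38, -2.08 and -1.69 (edgeR quasi-likelihood adjusted p = 5.15e-04, 9.20e-04 and 0.00190). Ifit3, an antiviral effector, had a log2 fold change of -1.88 (edgeR quasi-likelihood adjusted p = 0.00129), but 97.4% of its transcript matches Ifit3b at 97.8% identity and the counts of these copies may be split. A smaller change was that of Bst2, which tethers virus particles, with 81.6 and 79.0 CPM with DI against 105 and 95.8 CPM with vehicle (log2 fold change -0.32, edgeR quasi-likelihood adjusted p = 0.0234). Its call was lost under 2 of 15 alternative settings, without the second RANKL+DI library (adjusted p = 0.0640) and without the first RANKL+Veh library (adjusted p = 0.0812). Usp18 is counted both here and among the feedback genes.

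**Figure D4:**
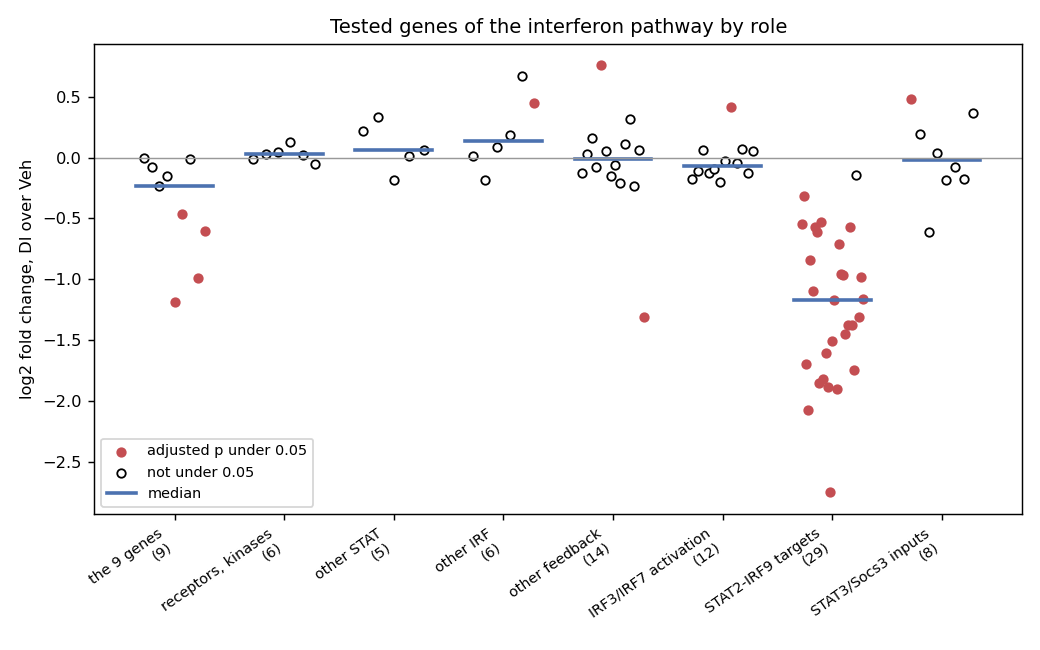
Log2 fold change (RANKL+DI over RANKL+Veh) of every tested gene, grouped by role, 1 point a gene, with the number tested in parentheses and the median as a blue line. Filled red points have an adjusted p under 0.05 (edgeR quasi-likelihood test). The medians of the receptor, STAT and kinase groups lie near 0, while the targets of STAT2 and IRF9 have a median of -1.17.

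Across the 4 libraries, the genes whose centred log2 CPM lay nearest to that of a member were listed for the 3 members with the smallest p, among the 9267 genes whose average log2 CPM exceeded 3. Nearest to Irf7 were Nptx1 at a Euclidean distance of 0.113, Ifi203 at 0.144 and Slc5a3 at 0.152. Ifi203 is an interferon-inducible gene of the HIN-200 family. Stat2 lay closest to Kif2c (0.0161), Ppp2r3a (0.0469) and Ckap2 (0.0471), and Irf9 to Ska1 (0.0284), Rfc5 (0.0365) and Nop2 (0.0382). Kif2c, Ckap2 and Ska1 encode proteins of the mitotic spindle. With 4 libraries in 2 groups these distances mainly reflect the size of the change and the spread within groups, and they are given as a description.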

How the data were processed

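Messenger RNA of BMMs was sequenced from both ends in 4 libraries, grouped by their labels. Raw, unnormalized counts for every gene are deposited by the authors. Their deposited FPKM values follow from those counts and were used for ratios within a library and as an alternative unit. The submitters' notes name the builds GRCm38 and mm10, and the aligner, counter, annotation release and strand setting are not given in the sources used here. Deposited positions matched GENCODE M21 in 80.8% of 34267 shared identifiers, not for Stat2, Irf3 and Socs1.

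Genes with low counts were removed by the default filter of edgeR 4.0.16 (R 4.3.3), libraries were scaled by TMM, and a quasi-likelihood model with condition alone was fitted (residual degrees of freedom 2), with Benjamini-Hochberg adjustment over 12590 genes. Depth was between 16085692 and 19403480 counts, intervals come from the fit, and the floor of 3 counts covers counting error only. Alternatives were DESeq2 1.42.0 size factors and Wald test, upper quartile factors, library size only, other filters, the edgeR exact test, limma-voom (limma 3.58.1), log2(FPKM + 0.01) and log2(FPKM + 1) with limma, a prior count of 2, the replicate number as a block, and each library left out. The steps were tested on simulated data, where 53.2% of 1.5-fold changes and 86.5% of 2-fold changes were called and 5.36% of calls were false. Many changes of 1.5-fold were thus missed in the simulation. Each of its 3 draws changed 200 genes, while 1868 were called in the data, so these shares may not carry over to the data. Overlapping exons and transcript copies (BLAST+ 2.17.0, identity of 95% or more across 20% or more of a transcript) were sought in GENCODE M21.

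The members and lists were chosen with earlier results of these data known. Besides all members, the text names of each pathway list at most the 4 called genes with the smallest p and at most 2 others with the highest FPKM, the 3 nearest patterns of the 3 members with the smallest p, and at most 4 markers. Trim21, Jak1, Tyk2, Lyz2, Atp6v0d2 and the genes sharing sequence with a named gene were added after values were seen. The lists are textbook lists, and 1 pathway gene is not reported here.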

Additional observations from a re-analysis of the deposited data

How the results depend on the processing

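Stat2, Irf7 and Irf9 were lower and called under 16 of 16 alternatives each, with log2 fold changes from -0.71 to -0.53, from -1.31 to -0.98 and from -0.56 to -0.41. Socs3 was called under 15 of 16 (-1.19 to -0.80), losing its call without the first RANKL+Veh library (-0.95, adjusted p = 0.0551). Between 3 and 6 of the 9 genes were called, the highest with library size only, which added Irf1 and Ifnar2, moved the median over the whole set to -0.10 and changed the split of calls from 969 lower and 899 higher to 1932 lower and 548 higher. Both FPKM fits also called Irf1. The sign of the values nearest 0 was not stable. With a library left out Ifnar1 ranged from -0.030 to 0.024 and Socs1 from -0.35 to 0.46, and Socs1 was 0.028 with limma-voom. Over all 16 alternatives Ifnar1 ranged from -0.11 to 0.024. All tested genes called numbered 1868, and between 1087 and 1394 with a library left out, the lowest without the second RANKL+Veh library. With the replicate number as a block 4 of the 9 genes and 1389 of all genes were called and Socs1 was 0.020. The deviations of same-numbered libraries had r = -0.0302. With 2 libraries a group this value cannot show whether same-numbered libraries shared a mouse, a culture or a day. Targets of STAT2 and IRF9 called numbered between 26 and 29. The leave-out fits assume that a lone library varies like the other group, and 2 libraries a group limit the low-count Socs1 most.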
